A study of Mus musculus with 12 samples.

Results

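The guanylin pathway was described here through 5 genes in sorted crypt cells of the mouse small intestine. These were the peptide hormones guanylin (Guca2a) and uroguanylin (Guca2b), their receptor guanylyl cyclase C (Gucy2c), the chloride channel CFTR (Cftr) and the cGMP-dependent protein kinase II (Prkg2). All 5 of 5 symbols were found among the 55414 genes of the count table, and all 5 passed the filter on low counts, which kept 13057 genes. The genes were chosen by name, but they were selected on counts of all 12 libraries that were already known, so their differences between groups are given as descriptions with standard errors and 95% intervals, and with no p-value.

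The 12 bulk RNA-seq libraries form 4 groups of 3. Crypts were taken from the small intestine of naive C57BL/6J mice that were either wild type (WT) or GRvillinKO (GRKO), in which Cre under the villin promoter deletes the glucocorticoid receptor gene Nr3c1 in intestinal epithelial cells, and single cells were sorted as Paneth cells or as non-Paneth cells. The mice were 8 to 12 weeks old, and none was treated. The Paneth gate held CD24+ cKIT+ cells of medium to high side scatter negative for CD31, CD45 and TER119. How non-Paneth cells were gated is not given in the labels or methods. Genotypes were read from the sample titles, because the genotype field gives every Paneth library 1 genotype and every non-Paneth library the other. Nr3c1 matched the titles. It was found at 33.01 to 41.07 CPM, a count expressed per library total on a fixed scale, in WT Paneth libraries and at 4.726 to 12.13 CPM in GRKO Paneth libraries, and at 134.6 to 159.5 CPM in WT and 19.61 to 36.24 CPM in GRKO non-Paneth libraries. In the fit over all genes it was lower in GRKO cells by a log2 fold change of -2.31 in Paneth cells (SE 0.319, adjusted p = 0.0331, edgeR) and -2.67 in non-Paneth cells (SE 0.298, adjusted p = 6.66e-05).

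Guanylin and uroguanylin are small peptides that epithelial cells release into the gut lumen. They bind guanylyl cyclase C on the apical membrane, the receptor that bacterial heat-stable enterotoxins also bind, and the cyclase then makes cGMP inside the cell. cGMP activates the membrane-bound kinase encoded by Prkg2, which phosphorylates CFTR, and chloride, bicarbonate and water leave the cell, while sodium uptake through the exchanger NHE3 (Slc9a3) is inhibited. Phosphodiesterases break cGMP down again, and transporters such as that encoded by Abcc4 export it.

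Library totals ranged from 11126297 to 13965973 counts in the 6 Paneth libraries and from 12890785 to 15910292 counts in the 6 non-Paneth libraries. A few very abundant Paneth transcripts took a large part of the Paneth libraries: the 10 Paneth markers (Lyz1, Mmp7 and 8 others) summed to 379000 to 464800 CPM in the Paneth sorts and to 498.6 to 1820 CPM in the non-Paneth sorts. Levels below are therefore given as TMM-scaled CPM, in which edgeR's TMM factor (0.656 to 0.826 in Paneth and 1.2 to 1.5 in non-Paneth libraries) corrects the library total for composition. With library totals alone the log2 fold changes of all genes had a median of -0.68 for Paneth over non-Paneth cells in WT, of -1.05 in GRKO and of 0.31 for GRKO over WT in non-Paneth cells, and directions that depend on this are named beside the values. Xist, transcribed from the inactive X chromosome, was found at 126.5 and 256.6 CPM in both WT replicate 2 libraries and at no more than 0.5205 CPM in the other 10, so the mice were not all of the same sex.

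The positions and the sequence just upstream of the genes were read from GRCm39 with the GENCODE vM39 annotation. Guca2a (chr4:119494890-119496668, plus strand) and Guca2b (chr4:119513802-119516151, minus strand) are neighbours, with 17133 bases between them. Gucy2c (chr6:136674282-136758827, minus strand) and Cftr (chr6:18170686-18322767, plus strand) lie far apart on another chromosome, and Prkg2 lies at chr5:99076863-99185470 on the minus strand. The 250 bases before the start of the canonical transcript are printed for both peptides, which share a locus and differ in their levels between the sorts, and for the receptor they bind. Capitals mark matches to GATAA or its reverse complement TTATC (the core bound by GATA factors) and TTTAT or ATAAA (bound by CDX factors). The windows are chr4:119494640-119494889 for Guca2a on the plus strand, chr4:119516152-119516401 for Guca2b on the minus strand and chr6:136758828-136759077 for Gucy2c on the minus strand.
Guca2a: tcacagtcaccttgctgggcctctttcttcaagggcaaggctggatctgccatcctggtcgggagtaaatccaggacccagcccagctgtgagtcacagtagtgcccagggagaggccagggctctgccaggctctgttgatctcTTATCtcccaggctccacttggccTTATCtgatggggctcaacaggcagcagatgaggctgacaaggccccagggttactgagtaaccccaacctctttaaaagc
Guca2b: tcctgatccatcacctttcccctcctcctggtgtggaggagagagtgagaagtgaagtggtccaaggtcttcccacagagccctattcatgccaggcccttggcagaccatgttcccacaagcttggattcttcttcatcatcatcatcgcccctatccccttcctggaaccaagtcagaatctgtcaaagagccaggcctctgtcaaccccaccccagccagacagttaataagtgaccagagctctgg
Gucy2c: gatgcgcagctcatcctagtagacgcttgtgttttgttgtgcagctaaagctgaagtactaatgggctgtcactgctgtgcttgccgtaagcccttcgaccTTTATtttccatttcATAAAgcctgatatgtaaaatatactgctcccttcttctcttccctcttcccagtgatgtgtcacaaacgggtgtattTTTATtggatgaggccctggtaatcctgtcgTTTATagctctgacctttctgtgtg
The Guca2a window held 2 matches to GATAA, at 105 and 81 bases before the start, a motif found in 22.4% of 21757 promoter windows of this length. The Guca2b window held no match to either motif. The Gucy2c window held 4 matches to TTTAT, at 149, 134, 56 and 25 bases, and 36.8% of all windows hold at least 1. AGAACA, the hexamer bound by the glucocorticoid receptor, was found in none of the 5 windows and in 14.3% of all windows, and CAAAGT, an HNF4 core found in 13.4% of all windows, was in none of the 5 either. All motifs were searched on both strands. A match is a description of letters, and no match says only that they are not in this window. The Cftr window stood out by its base composition, with 76.4% G and C against a median of 53.2%, above 98.3% of all windows, whereas Guca2a had 56.8%, Guca2b 53.6%, Gucy2c 44.8% and Prkg2 55.2%. The annotated antisense transcript Gm35761 overlaps Guca2b and its upstream window. It is not a row of the count table, and neither is Gm72872, antisense to Prkg2; the strand that was counted is not stated, so reads of such partners cannot be told apart from those of the 2 genes.

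Guca2a, which encodes guanylin, was higher in the Paneth sort than in the non-Paneth sort in both genotypes. It was found at 838, 963 and 792 TMM-scaled CPM in the 3 WT Paneth libraries (865 ± 88.4, SD, n = 3) and at 1010, 753 and 703 in the GRKO Paneth libraries (823 ± 166). The non-Paneth libraries had 268, 260 and 150 in WT (226 ± 66), and in GRKO they had 98.2, 217 and 113 (143 ± 65). Every Paneth library was above every non-Paneth library, while the genotypes overlapped in both sorts. The level in Paneth cells was 3.83-fold that of non-Paneth cells in WT (log2 fold change 1.94, SE 0.306, 95% interval 1.27 to 2.61) and 5.764-fold in GRKO (2.53, SE 0.313, 1.84 to 3.21). In these bulk samples, fewer cells that express a gene and less RNA per cell cannot be told apart.

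Guca2a varied among the non-Paneth libraries, with a coefficient of variation of 45.5% in GRKO and 29.3% in WT, against 10.2% in WT Paneth cells. GRKO replicate 2 was high and WT replicate 3 was low. The summed level of 8 goblet cell markers (Muc2, Tff3, Zg16 and others) was 6728, 9042 and 8368 CPM by library totals in GRKO non-Paneth replicates 1, 2 and 3, and 12130, 15780 and 7336 CPM in the WT ones. In GRKO the libraries had the same order for the goblet sum and for Guca2a. In WT replicate 3 was lowest in both, but replicate 2 had the highest goblet sum and replicate 1 the highest Guca2a. No goblet marker was at 0, and 0 of 8 rose and 2 of 8 fell in GRKO non-Paneth cells, against 17.5% and 19.8% of all genes. Between the sorts, 4 of 8 goblet markers were higher and 2 lower in Paneth cells in WT, and 5 of 8 and 2 in GRKO, with sums of 8647 to 11720 and 8867 to 11590 CPM in the WT and GRKO Paneth libraries. The higher ones were Spink4 (log2 fold change 4.97 in WT), Atoh1 (2.42), Spdef (2.37) and Agr2 (1.73), joined by Muc2 in GRKO. Zg16 (-4.54 in WT) and Fcgbp (-3.04) were lower, and Tff3 was not called in either genotype. All 5 tuft cell markers were higher in the Paneth sort in both genotypes, and 5 of 5 stem cell markers in WT and 2 of 5 in GRKO, against 24% of all genes in WT and 17.9% in GRKO. The part of these markers in the Guca2a levels was not tested. The log2 fold change of GRKO over WT in non-Paneth cells was -0.66 (SE 0.297, 95% interval -1.31 to -0.01), while without GRKO replicate 2 it was -1.16, without GRKO replicate 1 it was -0.50, and by library totals it was -0.37 (SE 0.274). In Paneth cells it was -0.07 (SE 0.296, -0.72 to 0.58).

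Guca2b, which encodes uroguanylin, was abundant in 3 of the 4 groups and low in the fourth. It was found at 401, 562 and 447 TMM-scaled CPM in the WT Paneth sort (470 ± 82.9, n = 3). The GRKO Paneth libraries had 633, 542 and 526 (567 ± 58) and the WT non-Paneth libraries 699, 459 and 380 (513 ± 166), and these groups overlapped. In GRKO non-Paneth libraries it was found at 95.4, 84.7 and 97.5 (92.6 ± 6.85), below every other library. This is a 5.541-fold lower level than in WT non-Paneth cells (log2 fold change -2.47, SE 0.202, 95% interval -2.9 to -2.04), and leaving out 1 library at a time kept the value between -2.71 and -2.24. In Paneth cells the same contrast gave 0.27 (SE 0.192, -0.14 to 0.68), and the difference of the genotype effect between the sorts was 2.74 (SE 0.276, 2.15 to 3.33).

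The sorts compared differently in each genotype. Guca2b in GRKO Paneth cells was 6.125-fold above GRKO non-Paneth cells (log2 fold change 2.61, SE 0.204, 2.18 to 3.05). In WT the log2 fold change was -0.13 (SE 0.192, -0.53 to 0.28); by library totals it was -0.84, with all 3 Paneth libraries below the non-Paneth ones. Without WT non-Paneth replicate 1, the highest library, it was 0.24.

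**Figure D1:**
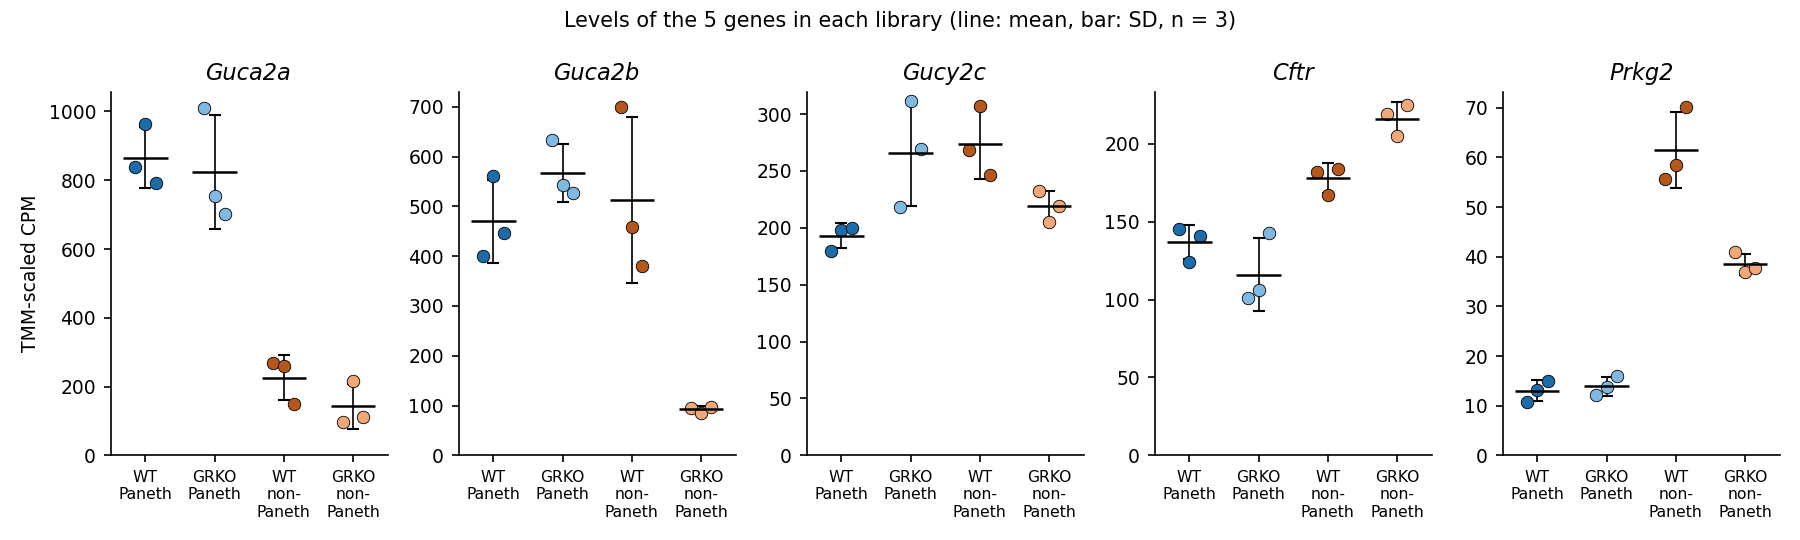
TMM-scaled CPM (y axis, linear from 0, a separate scale for each gene) of the 5 genes in the 12 libraries, with a point per library, the mean as a line and the SD as a bar (n = 3). Guca2b is at 84.7 to 97.5 in GRKO non-Paneth libraries, Guca2a is at 703 or more in Paneth libraries and at 268 or less in the others, and Prkg2 is highest in WT non-Paneth libraries.

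Because both peptides come from the same library, their ratio does not depend on scaling. Guca2a counts over Guca2b counts were 2.09, 1.71 and 1.77 in WT Paneth and 1.60, 1.39 and 1.34 in GRKO Paneth libraries. In WT non-Paneth libraries the ratio was 0.383, 0.565 and 0.394, so Guca2b was the more abundant peptide transcript there, and in GRKO non-Paneth libraries it was 1.03, 2.56 and 1.16. The libraries of the 2 genotypes did not overlap in either sort, with the GRKO ratio lower in Paneth cells and higher in non-Paneth cells.

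**Figure D2:**
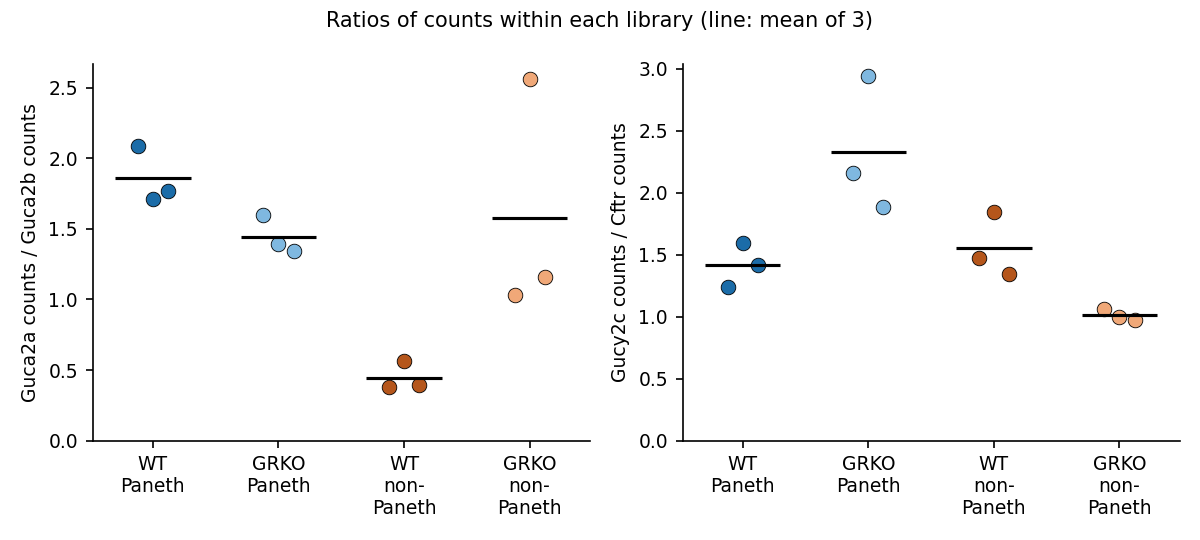
Ratio of counts within each library (y axes, linear from 0) for Guca2a over Guca2b (left) and Gucy2c over Cftr (right), with a point per library and the mean of 3 as a line. WT non-Paneth libraries lie at 0.383 to 0.565 for the peptides, below all others, and GRKO Paneth libraries lie at 1.88 to 2.94 for the receptor over the channel, above all others.

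Enterocyte markers, like Guca2b, were lower in GRKO than in WT non-Paneth libraries. The 10 markers (Alpi, Fabp1, Fabp2, Apoa1, Apoa4, Sis, Lct, Anpep, Vil1 and Krt20) summed to 36610 to 37510 CPM in WT and 9089 to 11300 CPM in GRKO non-Paneth libraries. Within WT the sum was nearly flat, at 37510, 36610 and 36850 CPM, while Guca2b had 699, 459 and 380 TMM-scaled CPM in these libraries. Of these 10 markers, 5 fell (19.8% of all genes did), none rose and none was at 0, with a median log2 fold change of -2.11. In Paneth libraries the sum was 595.6 to 1745 CPM in WT and 633.4 to 1173 CPM in GRKO, although Guca2b was found there at 401 to 633 TMM-scaled CPM. Stem cell markers (5 genes) summed to 6516 to 8552 CPM in GRKO against 4140 to 5713 CPM in WT non-Paneth libraries. For 5 proliferation markers the sums were 1771 to 1847 against 835.6 to 974 CPM. All marker sums are by library totals, which moved the median of all genes upward for GRKO over WT in this sort. Part of the gap between these stem and proliferation sums therefore comes from the scaling. In the TMM-scaled fit 3 of 5 stem cell markers (not Olfm4 and Axin2) and 5 of 5 proliferation markers were called higher, against 17.5% of all genes. Their median log2 fold changes were 0.56 and 0.71. The 5 tuft cell markers, with Dclk1 and Trpm5 among them, summed to 95.02 to 374 CPM in GRKO and 5.508 to 11.75 CPM in WT, and 4 of 5 rose. In Paneth libraries the tuft sum was 134.2 to 336.4 CPM in WT and 319.7 to 884.4 CPM in GRKO (median log2 fold change 1.36, with none of the 5 markers called by edgeR, against 3.22% of all genes). Over all 12 libraries 7 immune markers summed to 2.9 to 26.28 CPM and 7 endothelial and stromal markers to no more than 0.9309 CPM. The part of these cell types in the levels of the 5 genes and of the other pathway genes was not tested.

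**Figure D3:**
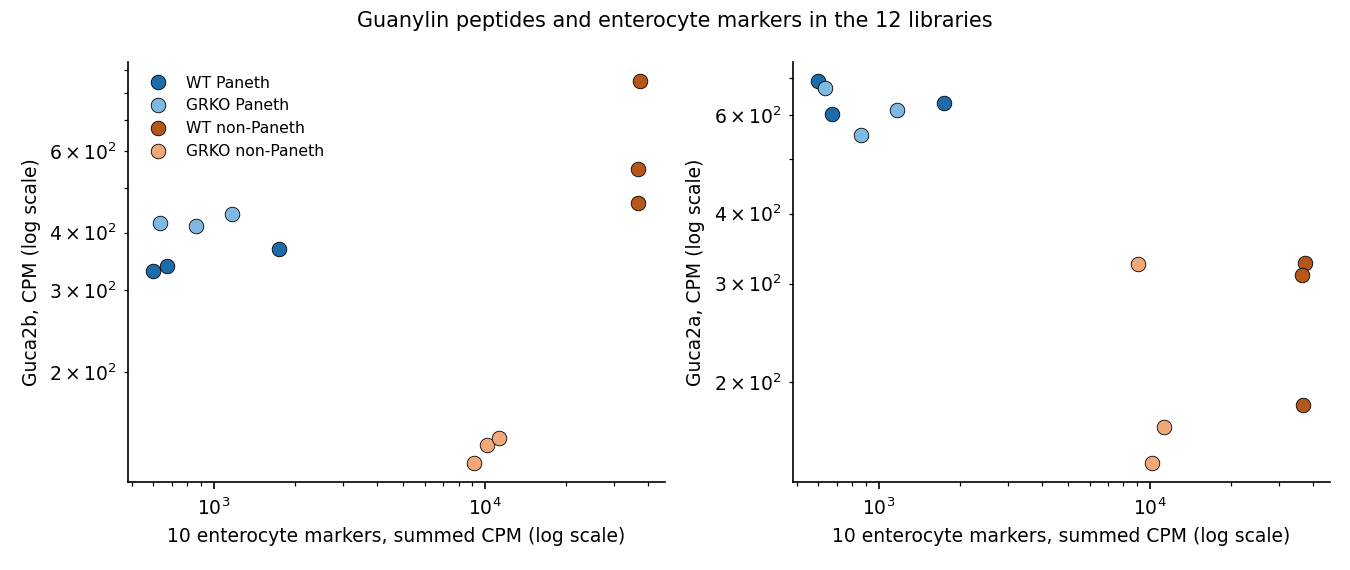
Guca2b (left) and Guca2a (right) in CPM by library totals against the summed CPM of 10 enterocyte markers in the same 12 libraries, both axes on a log scale, with 1 point per library. GRKO non-Paneth libraries lie between the Paneth and the WT non-Paneth libraries in enterocyte markers (9089 to 11300 CPM) and lowest of all in Guca2b.

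Gucy2c, the receptor, stayed within a narrow range over the 12 libraries. It was found at 180, 198 and 200 TMM-scaled CPM in WT Paneth libraries (193 ± 11, n = 3) and at 218, 311 and 269 in those of GRKO (266 ± 46.7). The non-Paneth libraries had 268, 307 and 246 in WT (274 ± 31) and 232, 205 and 219 in GRKO (219 ± 13.4). WT Paneth libraries were below all others, and the other 3 groups overlapped with their neighbours in that order of levels. In Paneth cells the GRKO level was 1.381-fold that of WT (log2 fold change 0.47, SE 0.137, 0.17 to 0.76), and in non-Paneth cells the log2 fold change was -0.32 (SE 0.136, -0.61 to -0.03). By library totals the value was 0.50 (SE 0.173) in Paneth cells, where the groups then overlapped, and -0.03 (SE 0.172) in non-Paneth cells. Paneth over non-Paneth cells gave -0.51 in WT (SE 0.137, -0.80 to -0.22) and 0.28 in GRKO (SE 0.136, -0.01 to 0.57), the latter turning to -0.67 by library totals.

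Cftr, the channel at the end of the pathway, was higher in the non-Paneth sort. The Paneth libraries had 145, 124 and 141 TMM-scaled CPM in WT (137 ± 11.1, n = 3) and 101, 106 and 143 in GRKO (116 ± 23.3). The non-Paneth libraries had 182, 167 and 184 in WT (178 ± 9.55) and 219, 205 and 225 in GRKO (216 ± 10.5). GRKO non-Paneth libraries were above WT non-Paneth libraries, these were above all Paneth libraries, and the Paneth genotypes overlapped. The log2 fold change of Paneth over non-Paneth cells was -0.38 in WT (SE 0.134, -0.66 to -0.09) and -0.89 in GRKO (SE 0.135, -1.18 to -0.60). GRKO over WT gave 0.28 in non-Paneth cells (SE 0.133, 0 to 0.56), opposite in sign to Guca2b, and -0.23 in Paneth cells (SE 0.134, -0.52 to 0.05). Receptor and channel counts were close to equal in GRKO non-Paneth libraries, with a Gucy2c to Cftr ratio of 1.06, 1.0 and 0.975, against 1.47, 1.84 and 1.34 in those of WT. In Paneth libraries it was 1.24, 1.59 and 1.42 in WT and 2.16, 2.94 and 1.88 in GRKO.

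Prkg2, the kinase between cGMP and CFTR, had the largest difference between the sorts of the 5 genes in WT and the lowest level in every group. It was found at 10.8, 13.1 and 15 TMM-scaled CPM in WT Paneth (13 ± 2.1, n = 3, 347 counts in all) and 12.1, 13.7 and 16 in GRKO Paneth libraries (13.9 ± 1.97), which overlapped. The WT non-Paneth libraries had 55.7, 58.5 and 70.2 (61.5 ± 7.69) and the GRKO non-Paneth libraries 40.9, 36.9 and 37.8 (38.5 ± 2.1), and neither group overlapped any other. Prkg2 in Paneth cells was 4.746-fold lower than in non-Paneth cells in WT (log2 fold change -2.25, SE 0.153, -2.57 to -1.92) and 2.759-fold lower in GRKO (-1.46, SE 0.149, -1.78 to -1.15). GRKO over WT gave -0.67 in non-Paneth cells (SE 0.139, -0.97 to -0.38) and 0.11 in Paneth cells (SE 0.158, -0.23 to 0.44). Per Prkg2 count there were 9.40 to 13.4 Cftr counts in WT and 7.72 to 8.95 in GRKO Paneth libraries, and 2.62 to 3.27 in WT and 5.35 to 5.95 in GRKO non-Paneth libraries.

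**Figure D4:**
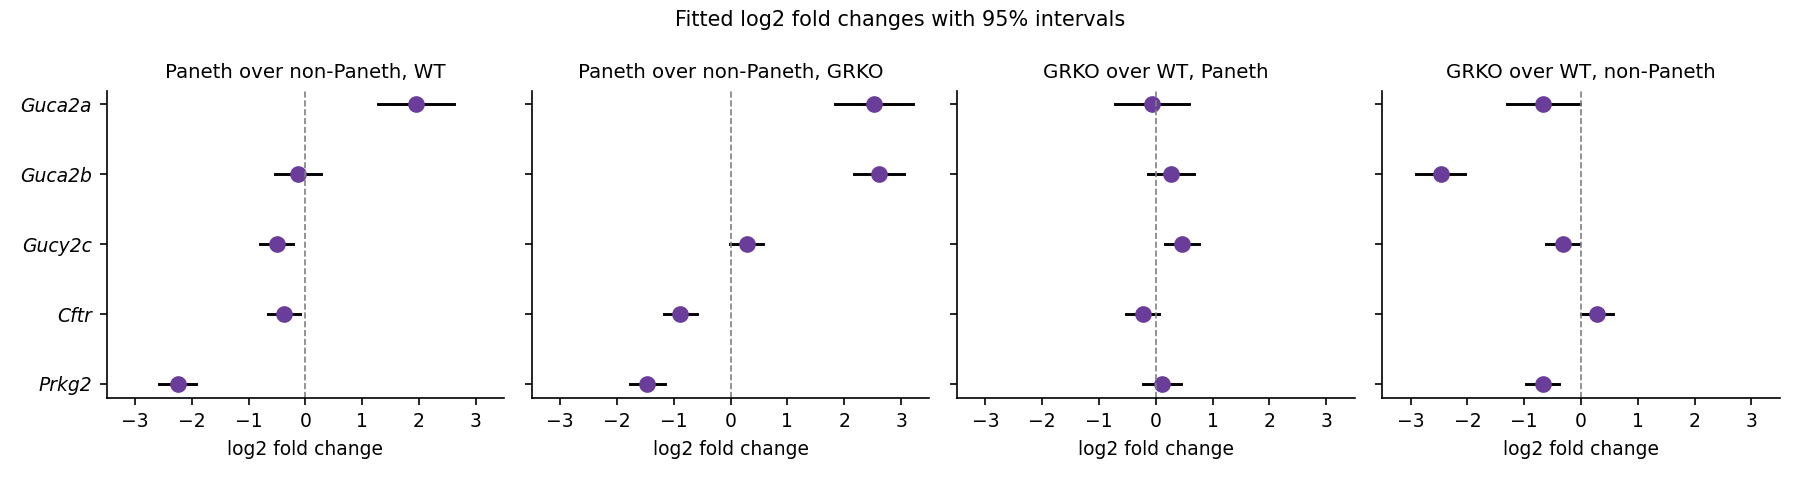
Fitted log2 fold changes (x axis) of the 5 genes in 4 comparisons, as points with 95% intervals from the edgeR fit over 12 libraries, with a dashed line at 0. Guca2b lies at -2.47 for GRKO over WT in non-Paneth cells and at 0.27 in Paneth cells, and Guca2a and Prkg2 lie on opposite sides of 0 in both comparisons of the sorts.

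The number of these genes whose libraries did not overlap was read against all genes. On TMM-scaled CPM the Paneth and non-Paneth libraries did not overlap for 4 of the 5 genes in WT, against 57.5% of the 13057 genes tested, and for 4 of the 5 in GRKO, against 52.6%. The genotypes did not overlap for 1 of the 5 in Paneth cells (Gucy2c), against 24.4% of all genes, and for 4 of the 5 in non-Paneth cells, against 55.3%. By library totals the numbers were 5 of 5 in WT (against 72%), 5 of 5 in GRKO (84%), 1 of 5 for the genotypes in Paneth cells, there Guca2b (18.2%), and 3 of 5 in non-Paneth cells (63.6%).

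Levels of different genes were compared per kilobase of exon. In WT Paneth cells Guca2a was found at 1060 ± 75.4 CPM per kb (n = 3), Guca2b at 397 ± 22.5, Gucy2c at 35.6 ± 3.01, Cftr at 13.2 ± 2.51 and Prkg2 at 1.48 ± 0.235. This order of peptides, receptor, channel and kinase was found in all 4 groups, except that Guca2b (712 ± 234) stood above Guca2a (451 ± 131) in WT non-Paneth cells. Among 19150 genes with a count in WT Paneth cells Guca2a ranked 28 and Guca2b 60, and among 20277 genes in WT non-Paneth cells they ranked 69 and 40. In GRKO non-Paneth cells, Guca2b ranked 205 and Guca2a 80 of 20398 genes. Cftr ranked 918 there and 1339 in WT non-Paneth cells, and Prkg2 ranked 4305 and 3099. In GRKO Paneth cells, Guca2a ranked 28 and Guca2b 44 of 18512 genes. The order of the 5 genes was the same with the length of the longest transcript.

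The genes whose levels followed each of the 5 most closely over the 12 libraries were taken from the 12028 tested genes with a mean of at least 1 CPM, by Pearson r of log2 TMM-scaled CPM. They were Nudt22 (r = 0.982), 1810041H14Rik (0.978) and Lrrc26 (0.978) for Guca2a, and Prxl2a (0.974), Ctsd (0.964) and Hpgd (0.958) for Guca2b. For Gucy2c they were Zdhhc9 (0.960), Pcdh1 (0.941) and Slc22a23 (0.938), for Cftr Mpzl2 (0.958), Pdss1 (0.935) and Sestd1 (0.933), and for Prkg2 Me2 (0.990), Snx25 (0.990) and Lta4h (0.989). Among the 5 genes, r was 0.721 between the peptides, -0.910 between Guca2a and Cftr, -0.874 between Guca2a and Prkg2, 0.780 between Cftr and Prkg2 and -0.0606 between Gucy2c and Cftr. The points share 4 groups and their scaling, so these values describe mainly the group means and carry no p-value.

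The wider pathway was followed in 127 other genes in 7 lists, of which 88 passed the filter. Between the sorts in WT, 22 of the 88 were higher and 43 lower in Paneth cells at a false discovery rate of 5%, a share of 73.9% against 50.7% of all genes tested (24% higher and 26.7% lower), with a median log2 fold change of -0.40 against 0.01 for all genes. In GRKO, 19 were higher and 34 lower (60.2% against 39.2% of all genes, 17.9% higher and 21.2% lower). For GRKO over WT in non-Paneth cells, 17 were higher and 24 lower (46.6% against 37.3%, 17.5% higher and 19.8% lower). In Paneth cells 1 of 88 was called (1.14% against 3.22%, 1.7% higher and 1.52% lower) by edgeR's quasi-likelihood test, against 9 by DESeq2 and 16 without the filter on low counts, and the genotype effect differed between the sorts for 19 of 88 (21.6% against 18.7%), 12 more positive in Paneth cells (11.5% of all genes) and 7 more negative (7.27%). The split by direction depended on the scaling. By library totals 11 were higher and 57 lower in Paneth cells in WT, and 7 and 68 in GRKO. All 13057 genes were as lopsided under that scaling, with 1097 higher and 7895 lower in WT and 816 and 9969 in GRKO. In GRKO non-Paneth cells 32 pathway genes rose and 18 fell by library totals, and 8 and 10 differed upward and downward between the sorts. The comparisons share libraries, so these shares are not independent of each other.

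Other sources of cGMP had few transcripts. Of 16 genes for soluble guanylyl cyclase, natriuretic peptides and their receptors, other membrane cyclases and nitric oxide synthases, 2 passed the filter. Npr1, a natriuretic peptide receptor with cyclase activity, was higher in Paneth cells (log2 fold change 2.39 in WT and 2.41 in GRKO) but reached at most 2.604 CPM. Nos2, which makes nitric oxide, was lower in Paneth cells (-2.03 in WT, -1.05 in GRKO) and fell in GRKO non-Paneth cells (-1.47). It varied in WT non-Paneth libraries, with 40.9, 96.4 and 132 TMM-scaled CPM against 30.1 to 36.2 in GRKO. The call of this fall was lost in a fit on only the groups compared. The call between the sorts in GRKO was lost with the 10-count filter, with the replicate block and at a threshold of 1%. Gucy1a1 of soluble guanylyl cyclase and Npr2 had 1 count each in all 12 libraries together. Prkg1, the other cGMP-dependent kinase, also had 1 count.

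Of 18 genes for cGMP breakdown and export, 10 were tested. Pde9a, a cGMP-specific phosphodiesterase, was found at 132 to 148 TMM-scaled CPM in WT and 42.2 to 51.6 in GRKO non-Paneth libraries, with no overlap. It fell in GRKO non-Paneth cells (log2 fold change -1.52, SE 0.129, adjusted p = 3.53e-06) and had 31.7 to 43.8 in all 6 Paneth libraries. Pde5a, another cGMP phosphodiesterase, was lower in Paneth cells (-0.88 in WT, -0.77 in GRKO) with 0.07 for GRKO over WT in non-Paneth cells (adjusted p = 0.720). Abcc4, the cGMP exporter known to sit beside CFTR, was higher in Paneth cells (2.91 in WT, SE 0.252, adjusted p = 1.83e-07) and rose in GRKO non-Paneth cells, with 4.29 to 6.92 TMM-scaled CPM against 2.04 to 2.35 in WT (1.28, SE 0.250, adjusted p = 0.00113). Pde3b, which cGMP inhibits, rose there too (0.75). In the list of other cGMP effectors, Vasp, a substrate of the kinases, was lower in Paneth cells (-0.64 in WT). Irag2 is in that list too, but its response to cGMP was not tested. It rose in GRKO non-Paneth cells with 9.27 to 34.4 against 0.535 to 1.69 in WT (4.62, SE 0.762, adjusted p = 0.00175), beside the rise of tuft cell markers given above.

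Genes for scaffold and trafficking proteins that act on CFTR or NHE3 made a list of 9, all tested. Of these, 6 were lower, 1 was higher and 2 were not called in WT Paneth cells (26.7% and 24% of all genes were lower and higher), and 5 were lower and 1 higher in GRKO (21.2% and 17.9%). In WT, Pdzk1 (log2 fold change -5.70), Nherf4 (-3.70), Nherf1 (-3.02), the membrane linker Ezr (-2.04), Stx3 (-1.25) and Snx27 (-0.41) were lower, and Nherf2 (4.49) was higher, at 11 to 14.9 TMM-scaled CPM against 0.214 to 0.891 in non-Paneth libraries. In GRKO non-Paneth cells, Nherf1 fell, with 235 to 276 against 693 to 800 in WT (-1.53, SE 0.172, adjusted p = 2.34e-05). Pdzk1 (-2.42), Nherf4 (-1.64), Ezr (-1.24) and Stx3 (-0.88) fell with it and Nherf2 rose (1.13). Enterocyte markers fell in the same sort (median log2 fold change -2.11), and their part in these values was not tested.

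Transporters of salt and fluid made the longest list, with 33 of 36 tested. By library totals 22 were lower and 2 higher in WT Paneth cells, against 7895 and 1097 of all 13057 genes. With TMM scaling 20 were lower and 8 higher, against 26.7% and 24% of all genes. Among the lower ones were the sodium-hydrogen exchanger Slc9a3 (log2 fold change -5.45), the anion exchangers Slc26a6 (-4.83) and Slc26a3 (-3.62) and the bicarbonate transporter Slc4a4 (-2.12), and the largest differences were those of Clca4a (-6.22) and the aquaporin Aqp3 (-6.22). Aqp3 was at 0, 0.619 and 0 TMM-scaled CPM in WT Paneth libraries against 13.2 to 16.3 in WT non-Paneth libraries. Its fold change is thus set by a level near the floor. Among the higher ones were Fxyd3 (3.24), a regulator of the sodium pump, Wnk4 (1.4) and the secretory genes Kcne3 (0.83), Slc12a2 (0.65) and Kcnq1 (0.51), of which Slc12a2 and Kcnq1 turned to -0.06 and -0.18 by library totals. In GRKO non-Paneth cells 14 fell and 6 rose, against 19.8% and 17.5% of all genes, while by library totals 9 fell and 9 rose.

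In that sort, the exchanger Slc9a3, the target of inhibition by cGMP, fell (-2.04, SE 0.614, adjusted p = 0.0295), with 37.1 to 103 TMM-scaled CPM against 176 to 328 in WT, and so did Slc26a6 (-1.80), Slc26a3 (-1.0) and the water channel Aqp8 (-4.47). Aqp8 was low, at 0.042 to 0.559 TMM-scaled CPM in GRKO against 3.08 to 6.49 in WT, so its value rests on few counts. Slc12a2, the basolateral cotransporter that loads chloride into secreting cells, rose, with 701 to 744 against 451 to 532 in WT (0.54, SE 0.144, adjusted p = 0.00856). The basolateral potassium channels Kcnq1 (0.69, adjusted p = 0.0016) and Kcnn4 (0.69) and the kinase Stk39 (0.67) rose with it, and Cftr lay at 0.28. Kcne3, the partner of Kcnq1, was at 0.21 (adjusted p = 0.378), and Slc4a4 was not called. Enterocyte markers had a median log2 fold change of -2.11 in this sort, and their part in the transporter values was not tested.

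**Figure D5:**
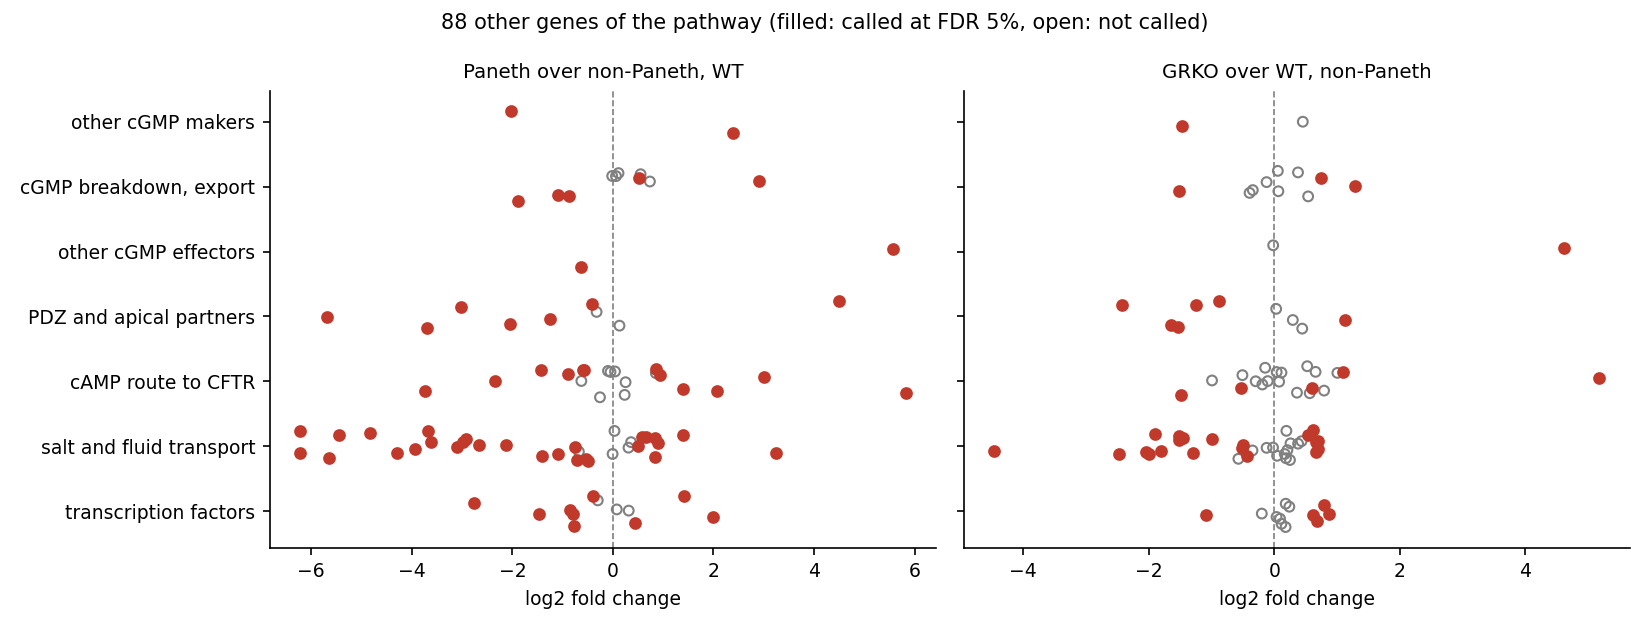
Log2 fold changes (x axis) of 88 other genes of the pathway in 7 lists (y axis, points spread at random within a list), for Paneth over non-Paneth cells in WT (left) and GRKO over WT in non-Paneth cells (right), filled where called at a false discovery rate of 5%. Scaffold and transport genes lie mostly below 0 on the left, with 6 of 9 and 20 of 33 called lower.

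The cAMP route is the other way to open CFTR. Of 20 tested genes, 6 were higher and 6 lower in WT Paneth cells, against 24% and 26.7% of all genes. In GRKO 7 were higher and 3 lower, against 17.9% and 21.2%. By library totals these counts were 3 and 12 in WT and 2 and 14 in GRKO. Of all 13057 genes, 1097 were then higher and 7895 lower in WT, and 816 and 9969 in GRKO. Among those with at least 1 CPM, Adcy5 (5.82) and the regulatory subunit Prkar2b (3.00) were highest in WT, and the adenosine receptor Adora2b (-3.75) was lowest. All 5 tuft cell markers were also higher in WT Paneth than in non-Paneth cells (median log2 fold change 5.77), with sums of 134.2 to 336.4 CPM against 5.508 to 11.75 CPM, and their part in the Adcy5 and Prkar2b values was not tested. The catalytic subunit Prkacb was higher (0.87), and Adcy6, the most abundant cyclase named here with 144 to 231 TMM-scaled CPM, was at -0.10 (adjusted p = 0.638). In GRKO non-Paneth cells Adcy5 rose, with 2.63 to 10.8 against 0 to 0.321 in WT (5.18, SE 1.02), Adcy1 (1.09) and Prkacb (0.60) rose, and Adora2b (-1.49) and the VIP receptor Vipr1 (-0.53) fell. The 1 pathway gene called in Paneth cells was Prkar2a, a regulatory subunit of the cAMP kinase, at 115, 165 and 177 in WT and 192, 279 and 277 in GRKO (0.71, SE 0.171, adjusted p = 0.0448), a call that was lost without GRKO Paneth replicate 2 or 3, without WT Paneth replicate 1 or 2, by library totals and in a fit on only the groups compared.

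Of 12 transcription factors known for the promoters of Gucy2c or Cftr, all were tested. In WT Paneth cells Foxa2 (2.0), Foxa1 (1.42) and Ehf (0.43, turning to -0.26 by library totals) were higher, and Hnf4g (-2.76), Gata4 (-1.46), Klf5 (-0.85), Hnf4a (-0.78) and Cdx2 (-0.39) were among those lower. In GRKO non-Paneth cells Foxa2 (0.88), Ehf (0.80), Foxa1 (0.68) and Cdx1 (0.62) rose and Hnf4g (-1.09) fell. Cdx2 stayed within 179 to 192 TMM-scaled CPM in all 6 non-Paneth libraries (log2 fold change 0.04, adjusted p = 0.81), and Hnf4a (0.24, adjusted p = 0.194) did not pass the test.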

How the data were processed

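Bulk RNA-seq of sorted Paneth and non-Paneth cells was analysed in 12 libraries. The authors deposited raw counts per gene: per the methods and the submitters' processing notes, single-end reads of stranded TruSeq libraries were trimmed with Trimmomatic 0.39, checked with FastQC and counted by STAR 2.7.10a during alignment to mm39 with an annotation called gencode v28. STAR counts reads that map once and overlap 1 gene. Read length and counted strand are not given in the sources used here. Of 55414 identifiers, 54749 were named through GENCODE vM39, whose release may differ.

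CPM was computed from all gene counts. Groups were compared in R 4.3.3 by the quasi-likelihood F-test of edgeR 4.0.16 (robust glmQLFit and glmQLFTest after filterByExpr and TMM) in 1 fit over 12 libraries, with p-values adjusted over 13057 genes by the method of Benjamini and Hochberg and a threshold of 5%. The procedure was tested on simulated data. Alternatives were DESeq2 1.42.0, other scalings and filters, a fit without the groups not compared, a block for the replicate number, a threshold of 1% and the omission of each library. Motifs were searched in the 250 bases before each gene's start in GRCm39.

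The members and lists were chosen with earlier results of these data known. The named genes are the members, Nr3c1, genes of the lists (a fixed set of core genes and the largest changes among genes with at least 1 CPM) and the 3 genes most like each member. The values of 2 genes of the lists are not reported here. Totals ranged from 11126297 to 15910292 counts. The labels do not say that libraries came from separate mice, so p-values measure the spread between these libraries, and they name no batch, which cannot be told apart from the groups. Chi-square per degree of freedom between libraries of a group was 12.3 to 47.1, so none was a second sequencing of the same library. This value cannot tell libraries of the same mouse apart from libraries of separate mice. After group means were removed, WT Paneth and non-Paneth libraries with the same number correlated at 0.349, 0.229 and 0.238, above the limit of 0.1 set for pairing; for GRKO the values were 0.0129, 0.262 and 0.465.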

Additional observations from a re-analysis of the deposited data

Results flagged for a closer look

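For 19 of the 88 other pathway genes the genotype effect (log2 fold change of GRKO over WT) differed between the sorts by the test of the difference itself in the edgeR fit. This was 21.6%, close to the 18.7% of all genes tested (11.5% more positive in Paneth cells and 7.27% more negative). In 12 genes the effect in Paneth cells was above that in non-Paneth cells, among them Adora2b by 2.50, Nherf1 by 1.73, Ezr by 1.56, Pde9a by 1.37, Slc4a7 by 1.29, Clcn2 by 1.28, Slc9a2 by 1.28, Nherf4 by 1.22, Stx3 by 1.12, Clca4b by 1.08 and Atp1b1 by 0.56 on the log2 scale. In 7 genes it was below: the difference was -3.27 for Irag2, -0.89 for Kcne3, -0.87 for Kcnq1, -0.82 for Kcnn4, -0.81 for Aqp4, -0.69 for Slc12a2 and -0.64 for Atp1b3. For Pde9a the effects were -0.15 in Paneth and -1.52 in non-Paneth cells, for Nherf1 0.20 and -1.53, for Slc12a2 -0.15 and 0.54 and for Kcnq1 -0.18 and 0.69.

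Gucy2c was flagged because every GRKO Paneth library was above every WT Paneth library and every GRKO non-Paneth library below every WT non-Paneth library on TMM-scaled CPM. The genotypes did not overlap, in either direction, for 24.4% of all genes in Paneth and 55.3% in non-Paneth cells. The share of all genes with opposite directions in the sorts was not counted. For Gucy2c the effects were 0.47 and -0.32, a difference of 0.79, which was not tested. By library totals the groups overlapped in both sorts and the difference was 0.53.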

How the results depend on the processing

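Scaling by library totals only shifted the median of all genes (0.01 to -0.68 for the sorts in WT, -0.08 to -1.05 in GRKO, 0.02 to 0.31 for the genotypes in non-Paneth cells) and the 5 genes with it. Paneth over non-Paneth cells in WT then gave 1.23 for Guca2a, -0.84 for Guca2b, -1.21 for Gucy2c, -1.07 for Cftr and -2.95 for Prkg2, and in GRKO 1.53, 1.63, -0.67, -1.85 and -2.43, with 10785 genes called. GRKO over WT in non-Paneth cells gave -0.0347 for Gucy2c, 0.57 for Cftr and -0.39 for Prkg2, and the difference between the sorts 0.53, -0.79 and 0.52. No other setting that kept all libraries moved a member by more than its spread. Directions turned under library totals for Slc12a2 (-0.057), Kcnq1 (-0.18), Pde3b (-0.17), Aqp1 (-0.13) and Ehf (-0.26) between the sorts in WT, and for Prkacb (-0.63), Abcc5 (-0.41), Gnas (-0.61), Scnn1a (-0.24), Wnk4 (-0.0363) and Stk39 (-0.49) in GRKO.

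The genotype comparison in Paneth cells depended most on the settings: 420 genes (1 of the pathway) were called, against 1421 (9) by DESeq2, 1780 (16) with no filter on low counts, 2 (0) by library totals, 0 (0) in a fit on only the groups compared, with 2341 genes at an unadjusted p under 0.05, and 0 (0) at a threshold of 1%. With at least 10 counts in all libraries of a group, 2 pathway genes were called. At 1%, 3002 genes were called between the genotypes in non-Paneth cells and 955 (8 of the pathway) for the difference between the sorts, for which 30 pathway genes were called with no filter.

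With the replicate number as a block the Paneth genotype comparison called 977 genes (4 of the pathway). The numbers of the 2 genotypes do not pair the libraries. For the sorts in WT, where they do, the block called 66 pathway genes against 65, and for the difference between the sorts 27 against 19. Guca2b in non-Paneth cells was -2.44 with the block.

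With 1 library left out at a time, the genotype comparison in Paneth cells called between 0 (without GRKO Paneth replicate 2) and 1619 genes (without GRKO Paneth replicate 1), with 0 to 8 of the pathway. The difference between the sorts was called for 1562 (without WT non-Paneth replicate 2) to 2610 genes (without WT Paneth replicate 2), with 12 to 25 of the pathway. Paneth over non-Paneth cells in WT ranged from -0.28 to 0.24 for Guca2b, from -0.54 to -0.32 for Gucy2c and from -0.42 to -0.27 for Cftr, and in GRKO from 2.35 to 3.07 for Guca2a and from 2.52 to 2.75 for Guca2b. GRKO over WT in non-Paneth cells ranged from -0.46 to -0.28 for Gucy2c and from 0.19 to 0.26 for Cftr. The difference between the sorts ranged from 0.39 to 1.05 for Guca2a and from -0.69 to -0.42 for Cftr. The cause of these moves was not tested. Among the members, the low level of Prkg2 in WT Paneth cells rests on 347 counts.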
